A study of Drosophila melanogaster with 14 samples.

Results

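The comparison described here is that of *Atx2* RNAi with wild type around dusk, in PDF+ LNvs sorted from *Drosophila melanogaster* brains. It rests on 4 of the 14 libraries of the series, namely the 2 *Atx2* RNAi libraries labelled ZT12 and those of wild type labelled ZT12 and ZT14 (ZT is the number of hours after lights on in a cycle of 12 h of light and 12 h of darkness). All flies were female, carry the label *w1118* and were kept at 25 °C on SY food of 1.5-fold strength, and no age is given in the labels. Per the methods, LNvs were marked with membrane GFP under *Pdf* control and separated by fluorescence-activated sorting, and the knockdown line was KK108843. *Pdf* drives expression in all PDF+ neurons, so large and small LNvs were collected together. Labels number the *Atx2* RNAi libraries, and wild type has 1 library for each time with no replicate number. Nothing in the labels says that the libraries of a group came from separate cultures of flies or separate sorts. The p-values therefore measure only the spread between libraries, which in wild type includes 2 h of clock time. That spread was estimated over the 8 libraries of the fit, which add those of *Atx2* RNAi and wild type around dawn, so the p-values at dusk depend on dawn too. Of 13792 genes with summed counts, 8643 passed the filter on low counts and were tested. The account covers gene families and functions across all of these genes rather than *Atx2*, *CrebA* and the core clock genes.

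LNvs are pacemaker neurons of the fly brain. They release the neuropeptide PDF, which keeps other clock neurons in time, and their terminals, excitability and transcripts change over the day. Atx2 is an RNA-binding protein of the cytoplasm that binds the poly(A)-binding protein and takes part in translation, in mRNA stability and in the assembly of RNA granules. In LNvs it is known to act with TYF to promote translation of the clock gene *per*.

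The libraries held 5216112 and 5771153 estimated counts in *Atx2* RNAi at ZT12, against 9185338 in wild type at ZT12 and 7754709 at ZT14. At these depths the floor of 3 counts, below which a value is read as a limit, corresponded to 4.4 and 3.79 normalized counts in *Atx2* RNAi, against 2.38 and 3.11 in wild type. A normalized count is a count scaled by library size and TMM factor to the geometric mean library of the 8 in the fit. *Pdf* itself was abundant in every library, with 1161030 and 860886 normalized counts in *Atx2* RNAi, against 629871 and 548898 in wild type (log2 fold change 0.78, standard error 0.22, adjusted p = 0.058 from edgeR). The glial marker *repo* stayed at or near the floor in all 4 libraries, and none of the 7 tested markers of glia or the 9 of photoreceptors was called. Fat body and yolk markers summed to 1387 and 682.8 normalized counts in *Atx2* RNAi, against 128.4 and 287.4 in wild type, and *Tdc2*, which makes tyramine, had 5086 and 4242, against 2332 and 1857 (adjusted p = 0.17 from edgeR). The other 7 markers of other transmitter types summed to 262.7 and 345.2, against 1613 and 1821. Most of the wild-type sum was *ChAT*, at 861.6 and 809.4, and *VAChT*, at 669.8 and 759.6. The 7 did not move as one. *ChAT*, *VAChT*, *Gad1* and *SerT* had negative log2 fold changes (-3.80, -3.19, -3.05 and -0.22), and *VGlut*, *ple* and *Vmat* positive ones (2.97, 2.51 and 1.69). Markers of neurons in general are given with the vesicle genes. Because these are bulk samples, fewer cells of a type and less RNA per cell cannot be told apart. As a check of the labels, *Atx2* had 170.2 and 276.9 normalized counts in *Atx2* RNAi, against 1768 and 1171 in wild type.

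At dusk, 590 of the 8643 genes tested (6.83%) passed an adjusted p of 0.05 in the quasi-likelihood test of edgeR, and this is what "called" means throughout. Of these, 279 (3.23%) were higher and 311 (3.6%) lower in *Atx2* RNAi than in wild type. An unadjusted p under 0.05 was reached by 2023 genes, and the median log2 fold change over all genes tested was -0.01. The absolute log2 fold change was over 2 for 189 of the called genes, between 1 and 2 for 299 and at most 1 for 102. The groups did not overlap for any of the 590, but with 2 libraries against 2 that was also true of 55.7% of all genes tested. Against the 6 wild-type libraries of all times, 251 of the 279 higher genes lay above every one and 290 of the 311 lower genes below every one, and the other 49 lay within the range of wild type over the day. Leaving out the first or the second *Atx2* RNAi library left 132 and 138 calls, and leaving out the wild-type library of ZT12 or ZT14 left 427 and 279. Of the 139 genes in the rule for naming, 42 stayed called without each of the 4 dusk libraries in turn, and none of the 139 changed direction.

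Most of the largest rises were in genes with under 20 normalized counts in both wild-type libraries, with *Dcr-2* as the exception among the 10. Each of the genes in the plot of the 20 largest changes had both *Atx2* RNAi libraries beyond both wild-type libraries, with at least 50 normalized counts in both libraries of the higher group. *mthl8*, a receptor of the Methuselah-like family (chr3L:22428-26308), had 154.1 and 132.8 normalized counts in *Atx2* RNAi, against 0 and 1.038 in wild type, at least 52.3-fold higher against the floor. *BBS9*, a subunit of the BBSome that moves cargo in cilia, had 407.9 and 332.5, against 6.341 and 2.075 (log2 fold change 6.35, standard error 0.56, adjusted p = 0.00014 from edgeR). For *GILT3*, a thiol reductase of the lysosomal GILT family (chr3R:23677358-23678421), the values were 700 and 763.7 in *Atx2* RNAi, against 8.719 and 17.64 in wild type (log2 fold change 5.82, adjusted p = 3.6e-05 from edgeR). The eggshell gene *Cp7Fb* had 267.1 and 269.3, against 7.134 and 3.113 (log2 fold change 5.62). Both groups stood far apart in these genes, and all 4 were also called higher at dawn, with log2 fold changes of 6.83, 6.50, 6.94 and 4.79. *Unc-115b*, an actin-binding protein of the axon guidance family, had 358.1 and 336.3, against 8.719 and 0 in wild type, the second with no count. It overlaps *p24-2* on the same strand, and reads cannot be assigned to one or the other with certainty. *CG1503* and *CG45072* were at least 24.8-fold and 33.9-fold higher, and *CG45072* lost its call without the second *Atx2* RNAi library (adjusted p = 0.074 from edgeR).

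**Figure D1:**
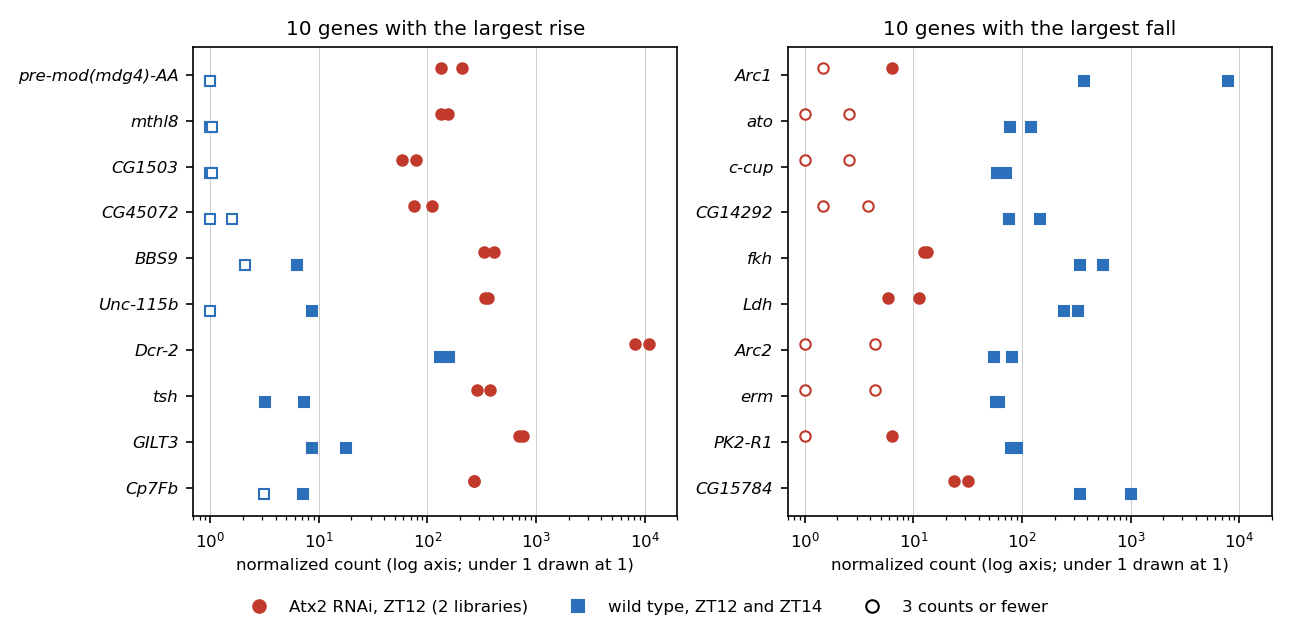
Normalized counts in single libraries (x axis, log scale, values under 1 drawn at 1) of the 10 genes with the largest rise (left) and the 10 with the largest fall (right) at dusk. Circles are the 2 *Atx2* RNAi libraries, squares are wild type at ZT12 and ZT14, and open symbols mark 3 counts or fewer. Among the falls, the wild-type libraries are furthest apart for *Arc1*, at 7930 and 373.6.

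Some of the rises were in genes included as checks of the RNAi strain. *Dcr-2*, the Dicer of the small interfering RNA pathway, had 8141 and 10958 normalized counts in *Atx2* RNAi, against 130 and 156.7 in wild type (log2 fold change 6.06, standard error 0.27, adjusted p = 1.1e-06 from edgeR), and a transgene for it is named neither in the labels nor in the methods. The zinc finger gene *tsh* (chr2L:21828593-21837011) had 287.6 and 378, against 3.171 and 7.264 (log2 fold change 6.02), and its neighbour *tio* (chr2L:22019208-22025734) had 195.2 and 257.9, against 40.42 and 23.87 (log2 fold change 2.80). Transgenes of the KK library are inserted near *tio* in some lines. *w*, the eye colour gene that serves as the marker of many fly transgenes, had 2731 and 2978, against 760.1 and 739.9 (log2 fold change 1.93). At dawn *w* was not called (log2 fold change 0.43, adjusted p = 0.23 from edgeR). The call of *tio* was lost without the second *Atx2* RNAi library (adjusted p = 0.062 from edgeR) or the wild-type library of ZT14 (adjusted p = 0.058). What part these loci had in the other changes was not tested.

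The series also holds 4 libraries of LNvs from *tyf(e)* mutants, with 2 each at ZT4 and ZT16, from females that share the *w1118* label and the food and temperature of the others. TYF is the protein with which Atx2 acts on *per*. These *tyf(e)* libraries, which are scaled here over all 14 libraries, share some of the extremes without *Atx2* RNAi. *mthl8* ran from 285.2 to 442.2 scaled counts in the 4 *tyf(e)* libraries, and *Unc-115b* from 786.7 to 1857. *BBS9* ran from 36.82 to 112.6 in the *tyf(e)* libraries. *w*, one of the check genes, ran from 1809 to 5422 there, beside 800.8 and 1051 in wild type of ZT4 and ZT16. In the other direction, *ato*, *c-cup* and *CG14292*, all lower in *Atx2* RNAi, had 0.7986 or 0 in every *tyf* library. In wild type of ZT4 and ZT16, *mthl8* had 0.7273 and 0.9272 and *c-cup* had 296 and 258.7. By contrast, *Dcr-2* was between 51.11 and 105.4 in the *tyf(e)* libraries. Smaller changes described below were shared in part. *RpL23* ran from 4857 to 7314 in *tyf(e)*, beside 2492 and 2946 in wild type of ZT4 and ZT16. *FMRFaR* ran from 14.4 to 44.72, beside 115.3 and 161.8. *Dop2R* overlapped, at 327.8 to 748.3, beside 609.8 and 720. How many members of the lists were shared was not counted.

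*pre-mod(mdg4)-AA*, one of the separately transcribed 3′ parts that are joined to *mod(mdg4)* by trans-splicing, had 133.5 and 208.6 normalized counts in *Atx2* RNAi at dusk and no count in either wild-type library, at least 62.3-fold higher against the floor. It overlaps *mod(mdg4)* and other such parts on the same strand. Its value moved between 0 and 237.4 scaled counts within the *tyf(e)* group, and at dawn it had 41.12 and 41 normalized counts in *Atx2* RNAi, against 59.72 and 85.72 in wild type. With all 14 libraries in the fit, *pre-mod(mdg4)-AA* lost its call (log2 fold change 3.14, adjusted p = 0.27 from edgeR), as did *CG1503* (adjusted p = 0.063).

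The largest falls included a gene of neuronal plasticity, a metabolic enzyme and regulators of cell identity. *Arc1*, whose protein forms capsids that carry its own RNA across synapses, had 1.467 and 6.322 normalized counts in *Atx2* RNAi, against 7930 and 373.6 in wild type (log2 fold change -9.96, standard error 1.56, adjusted p = 0.0044 from edgeR). Wild type varied widely over the day, with 48 scaled counts of *Arc1* at ZT4 and 2117 at ZT16, so the size of the fall is uncertain. In the *tyf(e)* libraries *Arc1* ran from 24.68 to 62.08. Without the wild-type library of ZT12, the log2 fold change of *Arc1* was -6.49 (adjusted p = 0.0021). Its neighbour *Arc2* had 4.402 and 0, against 80.06 and 55, at least 16.5-fold lower, and lost its call without the second *Atx2* RNAi library (adjusted p = 0.074 from edgeR). *Ldh*, lactate dehydrogenase (chr3L:6259105-6262694), had 5.87 and 11.38, against 324.2 and 244.9 (adjusted p = 0.00035 from edgeR), and its log2 fold change lay between -5.59 and -4.65 when any 1 dusk library was left out. The receptor of pyrokinin peptides *PK2-R1* had 0 and 6.322, against 90.36 and 79.9 (log2 fold change -4.62). *CG15784* had 23.48 and 31.61, against 1012 and 339.3 (log2 fold change -4.61), and *c-cup* and *CG14292* were at least 15.8-fold and 27.0-fold lower. *Arc1*, *Arc2*, *Ldh*, *PK2-R1*, *CG15784*, *c-cup* and *CG14292* were also called lower at dawn.

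Of the transcription factors that set the identity of neurons, 13 of 43 tested were called lower (30.2%, beside 3.6% of all genes) and 0 higher. The list was made after the values of some members had been seen, so its share supports nothing by itself. *ato*, a proneural factor, had 0 and 2.529 normalized counts in *Atx2* RNAi, against 121.3 and 77.83 in wild type, at least 24.3-fold lower. The forkhead factor *fkh* (chr3R:28580976-28585264) had 13.21 and 12.64, against 552.5 and 340.4 (log2 fold change -5.10). *Kr* had 85.11 and 60.69, against 670.6 and 726.4 (log2 fold change -3.26, adjusted p = 7.3e-05 from edgeR). *pros*, which acts in the exit of neural precursors from the cell cycle, had 509.2 and 456.4, against 4679 and 3100 (log2 fold change -3.01, adjusted p = 0.00099). The wild-type libraries were several-fold above the *Atx2* RNAi libraries in each of these genes. The LIM-homeodomain factors *ap*, *tup* and *Lim3*, which sort neurons by their targets, fell by 3.15, 3.21 and 2.30 on the log2 scale. The others called lower were *erm*, *exex*, *svp*, *run*, *pdm3* and *ct*, and the median of all 43 was -0.54. Without the first and the second *Atx2* RNAi library 6 and 5 of these 13 stayed called lower, and 9 did so without the wild-type library of either time. Without the first *Atx2* RNAi library *ato* had an adjusted p of 0.051, and without the second *fkh* had one of 0.06 and *erm* of 0.11 (edgeR).

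Transcripts for transmission by acetylcholine, which LNvs are not known for, were low in *Atx2* RNAi. *ChAT*, the enzyme that makes acetylcholine, had 32.28 and 85.98 normalized counts, against 861.6 and 809.4 in wild type (log2 fold change -3.80, adjusted p = 0.0033 from edgeR). *VAChT*, which loads acetylcholine into vesicles, lies within the *ChAT* locus on the same strand and had 76.31 and 79.66, against 669.8 and 759.6 (log2 fold change -3.19). *ChT*, the choline transporter, lies outside that locus and had 55.76 and 78.39, against 1028 and 1302 (log2 fold change -4.11, adjusted p = 0.00014). *ChAT*, *VAChT* and *ChT* were also called lower at dawn, with log2 fold changes of -2.07, -1.92 and -3.05. Whether cholinergic cells were present in different numbers among the sorted cells was not tested. The dopamine synthesis enzyme *ple* went the other way, with 49.89 and 93.56, against 13.47 and 11.41 (log2 fold change 2.51, adjusted p = 0.041), and lost its call without any 1 of the 4 dusk libraries (adjusted p from 0.087 to 0.28). *ChT*, *ChAT* and *ple* were picked with their values in view.

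Among the genes that dock, fuse and recycle synaptic vesicles, 12 of 39 tested were called lower in *Atx2* RNAi (30.8%, beside 3.6% of all genes) and 1 higher. The other 26 were not called, and the median log2 fold change was -0.50, beside -0.01 over all genes. *Snap25*, a SNARE of the fusion complex, had 560.6 and 732.1 normalized counts in *Atx2* RNAi, against 1990 and 1795 in wild type (log2 fold change -1.55, standard error 0.24, adjusted p = 0.0043 from edgeR). *cpx*, the fusion clamp complexin, had 3679 and 3897, against 8105 and 8727 (log2 fold change -1.15). *EndoA*, which bends membrane in endocytosis, had 890.7 and 856, against 2075 and 2298 (log2 fold change -1.32). *Rab3*, the vesicle GTPase, had 1874 and 2024, against 5104 and 4497 (log2 fold change -1.30). In each of these genes the 2 libraries of a group were close and the groups were well apart. The remaining calls were *comt* and *alphaSnap*, which disassemble SNARE complexes, *Rop*, the Sec1/Munc18 partner of syntaxin, *AP-2alpha*, *lap* and *Synj* of clathrin-mediated endocytosis, *CanA-14F* and *VAChT*, with log2 fold changes from -3.19 to -0.84. Of the genes not called, *Syx1A* had 2841 and 2610, against 2658 and 2544 (log2 fold change 0.07), and *brp*, the active zone scaffold, had 1384 and 1379, against 1909 and 2226 (log2 fold change -0.58, adjusted p = 0.1). Markers of neurons in general were lower too, with a sum of 30787 and 30015 normalized counts in *Atx2* RNAi, against 44627 and 42413 in wild type. All 5 had a negative log2 fold change, at -0.30 for *elav*, -0.38 for *nrv3*, -0.58 for *brp*, -0.64 for *nSyb* and -0.84 for *Syt1*, of which *Syt1* was called. Their part in the values of the vesicle list was not tested.

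*Fife*, another protein of the active zone, was the exception in the vesicle list. It had 3990 and 4382 normalized counts in *Atx2* RNAi, against 548.5 and 426.5 in wild type (log2 fold change 3.10, standard error 0.24, adjusted p = 8.7e-05 from edgeR), and 3.13 on the same scale at dawn. All 8 synaptotagmins tested, the calcium sensors of release and their relatives, had a negative log2 fold change, and only *Syt1* was called, with 4297 and 4170, against 7994 and 7114 (log2 fold change -0.84, adjusted p = 0.037). The call for *Syt1* was lost without any 1 of the 4 dusk libraries, with adjusted p between 0.077 and 0.22. For the vesicle list, 0 and 1 genes stayed called lower without the first and the second *Atx2* RNAi library, and its median was -0.54 and -0.53. Without wild type of ZT12 or of ZT14, 11 and 6 stayed called lower.

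**Figure D2:**
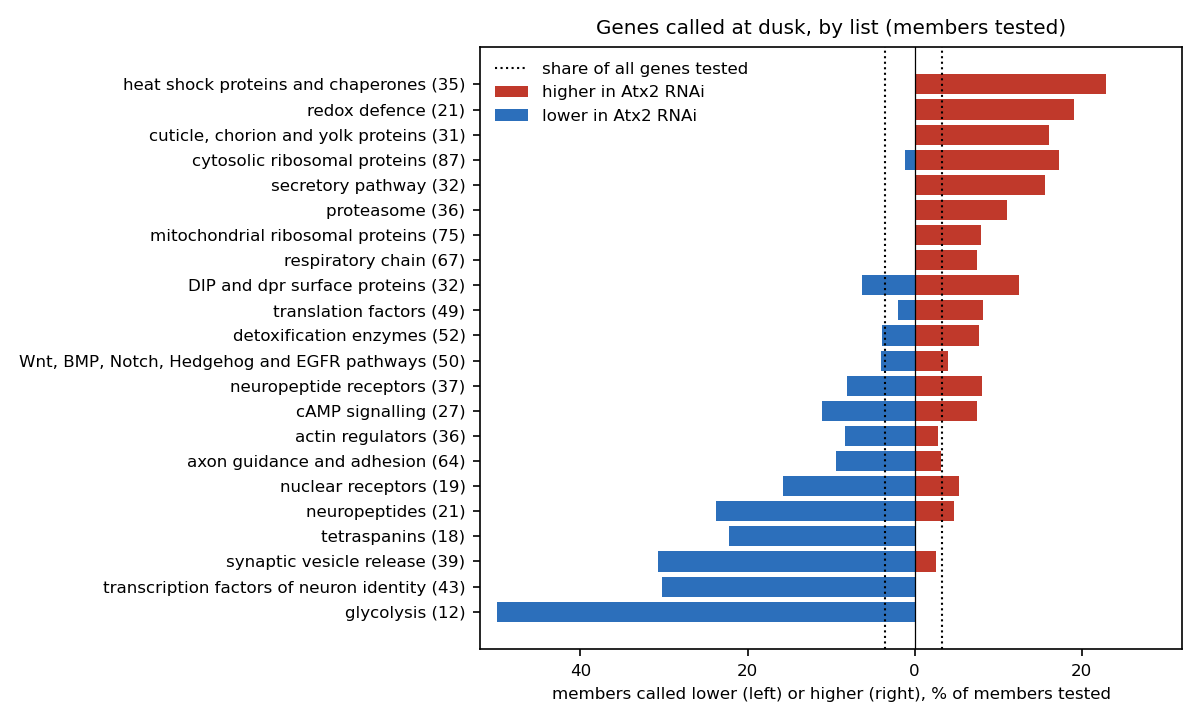
Share of tested members called lower (left of 0) or higher (right of 0) in *Atx2* RNAi at dusk, in % of the members tested, for lists with at least 10 members tested and at least 4 called. The number tested is in brackets, and dotted lines mark the shares among all genes tested, 3.6% lower and 3.23% higher. Glycolysis, with 6 of 12 lower, and heat shock proteins and chaperones, with 8 of 35 higher, are at the extremes. The 8 include near-identical Hsp70 copies.

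Of the 87 cytosolic ribosomal proteins tested, which make up the translating ribosome, 15 were called higher (17.2%, beside 3.23% of all genes) and 1 lower, and 71 were not called. The median log2 fold change was 0.72. The log2 fold change was above 0 for 83, and in 72 both *Atx2* RNAi libraries lay above both wild-type libraries, which was so for 28.5% of all genes tested, while 14 overlapped. *RpL23* had 8273 and 7419 normalized counts in *Atx2* RNAi, against 3281 and 2025 in wild type (log2 fold change 1.56, standard error 0.28, adjusted p = 0.0086 from edgeR). *RpL40* had 8360 and 6872, against 3821 and 2513 (log2 fold change 1.27), and *RpL3* had 8526 and 8345, against 4638 and 3396 (log2 fold change 1.07). *RpS15Ab*, a second copy of a ribosomal protein gene, was the one called lower, with 41.09 and 56.9, against 122.1 and 122.4 (log2 fold change -1.31). Summed over the 87 genes, normalized counts were 555977 and 492718 in *Atx2* RNAi, against 388329 and 267581 in wild type, so wild type also differed within itself, being lower at ZT14 than at ZT12. No member stayed called higher without the first or second *Atx2* RNAi library or the wild-type library of ZT14, where the medians were 0.63, 0.79 and 0.47. Without the wild-type library of ZT12, 18 were called higher, 7 of them among the 15, and the median was 1.00.

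Genes of translation, protein breakdown and mitochondria had fewer calls, most of them higher. Of translation factors 8.16% were called higher and of proteasome subunits 11.1%, beside 3.23% of all genes. Mitochondrial ribosomal proteins and the respiratory chain had 8% and 7.46%. Among the 1732 genes with the shortest transcripts (113 to 1067 bases), which include most members of these 2 lists, 118 were called higher. Their median log2 fold change was 0.36, near the medians of the 2 lists given below. Of translation factors 2.04% were called lower, beside 3.6% of all genes. Among 49 translation factors, with a median log2 fold change of 0.20 and 44 not called, *eEF1beta*, *eIF2beta*, *eIF3k* and *eIF3i* were called higher, with log2 fold changes of 1.30, 1.11, 1.09 and 0.99. *pAbp*, which encodes the poly(A)-binding protein that Atx2 binds, was called lower, with 6668 and 5792 normalized counts in *Atx2* RNAi, against 11694 and 9518 in wild type (log2 fold change -0.77, adjusted p = 0.046 from edgeR). The call for *pAbp* was lost without any 1 of the 4 dusk libraries, with adjusted p between 0.065 and 0.3. The list of mRNA decay and silencing factors, which holds other partners of Atx2 such as *me31B*, had no call among 28 genes tested and a median of -0.06. With 6.83% of all genes called, a list of this size would hold few calls, so their absence says little. Of 36 proteasome subunits, 4 were called higher (*Prosbeta1*, *Prosbeta2*, *Prosbeta5* and *Rpt2*) and the median was 0.44. Mitochondrial ribosomal proteins had 6 calls higher among 75, led by *mRpL24* (log2 fold change 1.40), and a median of 0.38. Nuclear-encoded subunits of the respiratory chain had 5 among 67, led by *ND-18* (log2 fold change 1.45), and a median of 0.39. Without the first or the second *Atx2* RNAi library, no translation factor or proteasome subunit stayed called higher, and of the 6 mitochondrial ribosomal proteins 0 and 1, and of the 5 respiratory chain subunits 0 and 1, did so. Without the wild-type library of ZT14, 1 mitochondrial ribosomal protein and 0 respiratory chain subunits stayed called, and the median of the respiratory chain was 0.14.

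Heat shock proteins and chaperones, which refold damaged proteins, had 8 of 35 called higher (22.9%, beside 3.23% of all genes) and none lower. *Hsp70Bbb*, one of the near-identical stress-inducible Hsp70 copies, had 1266 and 2056 normalized counts in *Atx2* RNAi, against 34.08 and 61.22 in wild type (log2 fold change 5.14, standard error 0.47, adjusted p = 0.00018 from edgeR). Estimated counts can be split unevenly among such copies, so the value of any one of them is uncertain. The copies *Hsp70Aa* and *Hsp70Bc* were also among the 8 calls, with log2 fold changes of 0.92 and 0.82. The calls of these copies are therefore not separate, and they raise the share of the list. Over the 6 Hsp70 copies together the sum was 13484 and 15395, against 10147 and 8368, a ratio of 1.56. *Hsc70-2* was at least 12.6-fold higher, with 26.41 and 42.99, against 0.7926 and 2.075. The small heat shock genes *Hsp67Bc* and *Hsp22*, the chaperonin subunit *CCT3* and the co-chaperone *stv* rose by log2 fold changes of 1.21, 1.09, 0.96 and 0.83. In the *tyf(e)* libraries *Hsp70Bbb* ran from 230.4 to 1430 scaled counts, beside 75.28 and 70.01 in wild type of ZT4 and ZT16. *Hsp22* ran from 857 to 3008, beside 383.3 and 594.8. *Hsp67Bc* overlapped, at 202.2 to 666.1, beside 324.4 and 200.3, and *Hsc70-2* had no count in *tyf(e)*. Of the 35, only *Hsp70Bbb* stayed called without the first, and likewise without the second, *Atx2* RNAi library. Within the endoplasmic reticulum, 2 of 19 chaperones and stress sensors were called higher (10.5%, beside 3.23% of all genes) and 0 lower. They were the disulfide isomerases *Pdi* and *ERp60*, with log2 fold changes of 0.93 and 0.75. Both lost the call without any 1 of the 4 dusk libraries, with adjusted p from 0.072 to 0.18 for *Pdi* and from 0.13 to 0.24 for *ERp60* (edgeR).

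**Figure D3:**
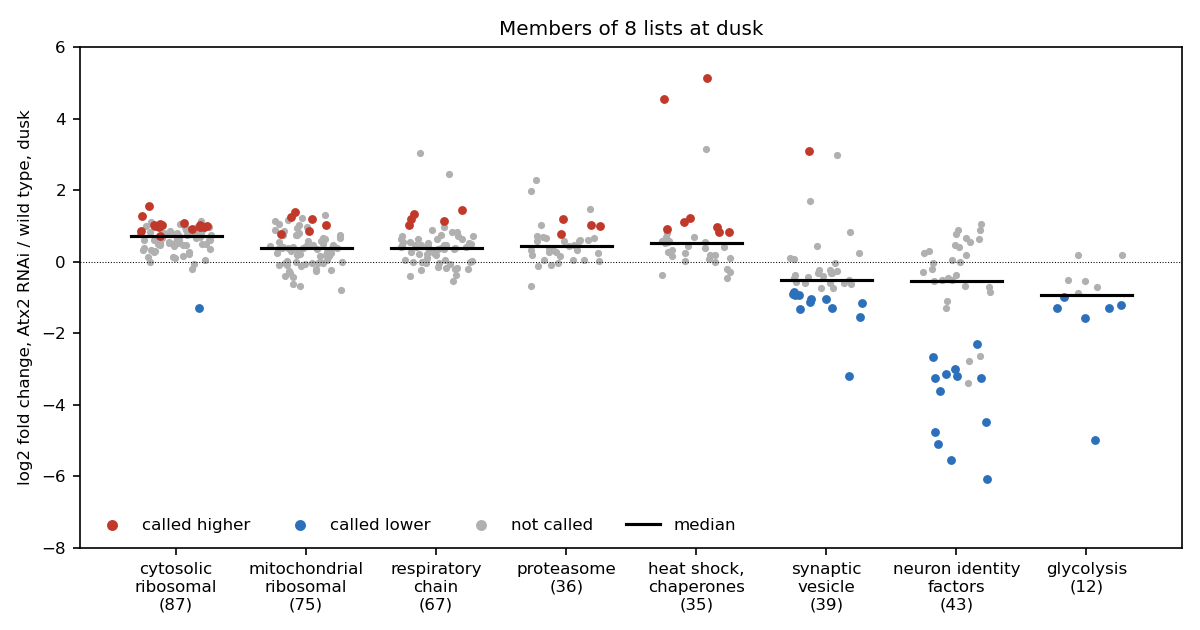
Log2 fold change of *Atx2* RNAi over wild type at dusk (y axis) of each tested member of 8 lists, with the number of members in brackets. Red points are called higher, blue points called lower and grey points not called, and bars are medians. The median is 0.72 for cytosolic ribosomal proteins and -0.94 for glycolysis.

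Transcript length moved with the fold change and stands beside these groups. When all genes tested were divided into 5 bins of about equal size by mean effective length, the median log2 fold change was 0.36 in the shortest bin (113 to 1067 bases) and 0.01, -0.11, -0.12 and -0.07 in the next 4. In the shortest bin 118 genes were called higher and 19 lower, and in the longest 49 higher and 90 lower. The shortest bin holds 84 of the 87 cytosolic ribosomal proteins, 60 of the 75 mitochondrial ones and 53 of the 67 respiratory chain subunits, and 23 of the 39 vesicle genes are in the longest. Without the ribosomal proteins, the shortest bin still had a median of 0.32. With an offset for transcript length in the fit, the medians of the ribosomal and vesicle lists were 0.78 and -0.49. That offset can only follow which transcripts of a gene were counted in each library. What part the length had in these groups was not tested.

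**Figure D4:**
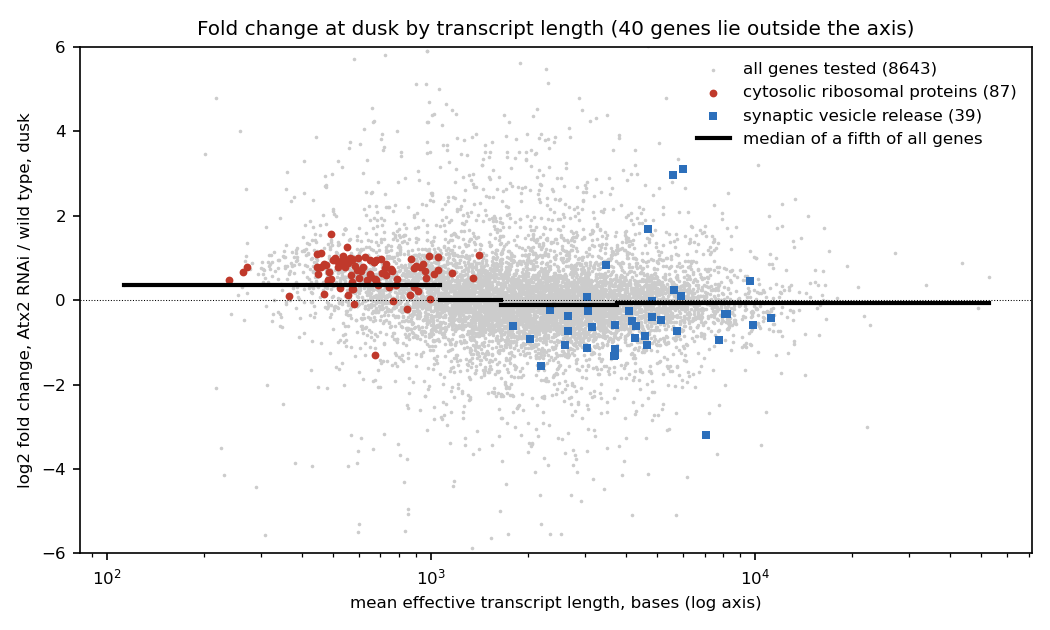
Log2 fold change of *Atx2* RNAi over wild type at dusk (y axis) against the mean effective transcript length of a gene in bases (x axis, log scale), for all 8643 genes tested. Red circles are cytosolic ribosomal proteins, blue squares vesicle release genes, and bars the medians of the 5 bins of length. The median is 0.36 in the shortest bin, and 40 genes lie beyond the y axis.

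Glycolysis, the breakdown of glucose to pyruvate, had the largest share of calls among the lists with at least 10 members tested. Of 12 genes tested, 6 were called lower (50%, beside 3.6% of all genes) and 0 higher. The median log2 fold change was -0.94 at dusk and -1.05 at dawn. *Gapdh2* (chrX:15868145-15869661) had 1104 and 1183 normalized counts in *Atx2* RNAi, against 4024 and 2872 in wild type (log2 fold change -1.59, standard error 0.23, adjusted p = 0.0029 from edgeR). *Ald1*, aldolase, had 3032 and 2638, against 8060 and 5990 (log2 fold change -1.31), and *Eno*, enolase, had 2616 and 2367, against 5942 and 5605 (log2 fold change -1.21). *Pgi* and *Gapdh1* fell by 1.31 and 1.00 on the log2 scale, and *Ldh*, which turns pyruvate into lactate, fell the most. *Pgk* had 1139 and 1090, against 1166 and 795.9, and *PyK*, pyruvate kinase, had 2499 and 2483, against 2949 and 1439, with log2 fold changes of 0.18 in both and overlapping groups. Summed over the list, normalized counts were 15860 and 14495 in *Atx2* RNAi, against 32161 and 25194 in wild type. Without the first, and likewise without the second, *Atx2* RNAi library, 2 genes of the list stayed called, *Gapdh2* and *Ldh*. *Indy*, a transporter of citrate and related acids (chr3L:18828632-18846267), had 327.2 and 471.6, against 3209 and 4478 (log2 fold change -3.26, adjusted p = 8.7e-05).

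Neuropeptide genes other than *Pdf* split in direction, with 1 called higher and 5 lower among 21 tested (4.76% and 23.8%, beside 3.23% and 3.6% of all genes). *Nplp1*, a precursor of several small peptides, had 5601 and 4968 normalized counts in *Atx2* RNAi, against 669.8 and 527.1 in wild type (log2 fold change 3.14, standard error 0.22, adjusted p = 3.8e-05 from edgeR). *Proc*, proctolin (chr2L:7864642-7871432), had 413.8 and 524.7, against 3088 and 2436 (log2 fold change -2.56, adjusted p = 0.00014). *Dh31*, a calcitonin-like diuretic hormone made by other clock neurons, had 2157 and 1487, against 11101 and 5732 (log2 fold change -2.21, adjusted p = 0.0029). *NPF*, made by a subset of clock neurons, had 716.1 and 445.1, against 3188 and 1731 (log2 fold change -2.08, adjusted p = 0.01). Each had both libraries of 1 group beyond those of the other, as did all 590 called genes and 55.7% of all genes tested. *Ms*, myosuppressin, had 13.21 and 7.586, against 1336 and 25.94 (log2 fold change -6.04), and *AstC*, allatostatin C, had 67.5 and 10.12, against 677.7 and 121.4 (log2 fold change -3.39). Both rested on the wild-type library of ZT12, without which the log2 fold changes were -1.33 (adjusted p = 0.47) for *Ms* and -1.67 (adjusted p = 0.32) for *AstC*. Without the first and the second *Atx2* RNAi library, the adjusted p was 0.17 and 0.2 for *Ms*, and 0.055 and 0.23 for *AstC*. *NPF* lost its call without the second *Atx2* RNAi library (adjusted p = 0.12).

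Of the 37 receptors for peptides tested, 3 were called higher and 3 lower (8.11% each, beside 3.23% and 3.6% of all genes), and 31 were not called. *Pdfr*, the receptor of PDF, had 18287 and 20172 normalized counts in *Atx2* RNAi, against 6783 and 4223 in wild type (log2 fold change 1.80, standard error 0.39, adjusted p = 0.023 from edgeR). *TkR99D*, a tachykinin receptor, had 102.7 and 98.62, against 11.89 and 19.72 (log2 fold change 2.68), and *CCKLR-17D3* had 107.1 and 89.77, against 12.68 and 26.98 (log2 fold change 2.32). *FMRFaR* had 22.01 and 16.44, against 180.7 and 238.7 (log2 fold change -3.45), and *sNPF-R* had 42.56 and 41.72, against 191.8 and 352.8 (log2 fold change -2.69). *PK2-R1* completes the group. *TkR99D*, *FMRFaR* and *PK2-R1* stayed called without each of the 4 dusk libraries. *sNPF-R* lost its call without either *Atx2* RNAi library (adjusted p = 0.19 in both cases), and its 2 wild-type values were far apart. *Pdfr* lost it without the first or the second *Atx2* RNAi library or the wild-type library of ZT14 (adjusted p = 0.082, 0.12 and 0.15 from edgeR). *CCKLR-17D3* lost it without either *Atx2* RNAi library or the wild-type library of ZT12 (adjusted p = 0.11, 0.078 and 0.082).

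All calls among the receptors for amines and acetylcholine and the ion channels were lower. Of the amine receptors, *Dop2R*, the inhibitory dopamine receptor, had 223 and 259.2 normalized counts in *Atx2* RNAi, against 921 and 620.5 in wild type (log2 fold change -1.68, adjusted p = 0.0029 from edgeR), and the serotonin receptor *5-HT7* fell by 2.11 on the log2 scale. *nAChRalpha7*, a nicotinic receptor subunit, had 842.3 and 789, against 2439 and 3091 (log2 fold change -1.76). The potassium channel gene *Shawl* and *Slob*, a regulator of the Slowpoke channel, fell by 1.77 and 1.57, and *Teh4*, an auxiliary protein of the sodium channel, fell by 1.14. These were 2 of 20, 1 of 9, 2 of 21 and 1 of 31 genes tested in their lists, against 3.6% called lower among all genes. Of those named, only *Dop2R* stayed called without each of the 4 dusk libraries in turn.

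Signalling through cAMP, which PDF raises in its target cells, had 2 genes called higher and 3 lower among 27 (7.41% and 11.1%, beside 3.23% and 3.6% of all genes). *Ggamma30A* (chr2L:9256563-9302494), a G protein gamma subunit known from phototransduction, had 569.4 and 594.3 normalized counts in *Atx2* RNAi, against 6272 and 6981 in wild type (log2 fold change -3.51, standard error 0.52, adjusted p = 0.0031 from edgeR). *Ggamma1* had 1509 and 1283, against 3192 and 3111 (log2 fold change -1.17). The adenylate cyclases, which make cAMP, differed from each other: *Ac76E* had 187.8 and 150.5, against 520 and 335.2 (log2 fold change -1.34), and *Ac13E* had 3195 and 2990, against 1684 and 888.3 (log2 fold change 1.26). *Pde1c*, which breaks cAMP down, had 881.9 and 848.4, against 367 and 295.7 (log2 fold change 1.38). Only *Ggamma30A* stayed called without each of the 4 dusk libraries in turn.

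Cell surface proteins of neuronal recognition were called in both directions. In the DIP and dpr families, whose members bind each other across synapses, 4 of 32 were called higher and 2 lower (12.5% and 6.25%, beside 3.23% and 3.6% of all genes). *dpr16* had 280.3 and 489.3 normalized counts in *Atx2* RNAi, against 31.71 and 38.39 in wild type (log2 fold change 3.46, adjusted p = 0.00056 from edgeR), and *dpr17* and *dpr8* rose by log2 fold changes of 2.46 and 1.90. *DIP-theta* had 22.01 and 20.23, against 261.6 and 446.2 (log2 fold change -4.06). In the beat family, *beat-VII* had 7421 and 9841, against 1863 and 857.1 (log2 fold change 2.66), and *beat-IIa* had 80.71 and 35.4, against 466.1 and 325.8 (log2 fold change -2.78). Among other guidance and adhesion genes, 2 of 64 were called higher, a share (3.12%) near that of all genes, and 6 lower (9.38%, beside 3.6%). Among the 6 were the homophilic adhesion protein *Con*, with 264.1 and 361.6, against 2183 and 1961 (log2 fold change -2.73), and *Dscam3*, with 51.36 and 54.37, against 256.8 and 336.2 (log2 fold change -2.48). *CadN*, the neuronal cadherin, had 1677 and 1851, against 3273 and 3975 (log2 fold change -1.04). *dpr16*, *dpr8*, *beat-IIa*, *beat-VII*, *Con* and *Dscam3* stayed called without each of the 4 dusk libraries. *dpr17* lost its call without the second *Atx2* RNAi library (adjusted p = 0.057 from edgeR) and without the wild-type library of ZT14 (adjusted p = 0.058). *DIP-theta* lost it without the second *Atx2* RNAi library (adjusted p = 0.057), and *CadN* without either *Atx2* RNAi library or the wild-type library of ZT14 (adjusted p = 0.15, 0.095 and 0.065).

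Among genes of the cytoskeleton, 2 of 40 tubulins, kinesins and dyneins were called lower (5%, beside 3.6% of all genes) and 0 higher. Of 36 actin regulators, 3 were called lower (8.33%) and 1 higher (2.78%, beside 3.23%). *Dhc64C*, the heavy chain of cytoplasmic dynein, had 296.4 and 319.9 normalized counts in *Atx2* RNAi, against 1008 and 1093 in wild type (log2 fold change -1.77, standard error 0.20, adjusted p = 0.00061 from edgeR). *Act5C*, a cytoplasmic actin, had 6060 and 5111, against 11115 and 13974 (log2 fold change -1.17), and *tau* had 1099 and 1096, against 2299 and 1854 (log2 fold change -0.92). *Unc-115a* and *Arpc4* fell by 1.56 and 1.91, whereas *Unc-115b* rose. Of 18 tetraspanins tested, which organise membrane proteins, *Tsp42Ek*, *Tsp66E*, *Tsp42Ee* and *Tsp96F* were called lower (22.2%, beside 3.6% of all genes). Their log2 fold changes ran from -1.60 to -1.12, while 10 of the 18 had a positive value and the median was 0.12. *Dhc64C*, *Unc-115a* and *Unc-115b* stayed called without each of the 4 dusk libraries. No tetraspanin stayed called without the first or the second *Atx2* RNAi library.

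Of the redox enzymes, which remove peroxides and other reactive molecules, 4 of 21 were called higher (19%, beside 3.23% of all genes) and 0 lower. *GstO3*, an omega-class glutathione transferase, had 252.4 and 318.6 normalized counts in *Atx2* RNAi, against 26.16 and 51.88 in wild type (log2 fold change 2.89, standard error 0.36, adjusted p = 0.0012 from edgeR). *GstS1* had 337.5 and 250.3, against 81.64 and 69.53 (log2 fold change 1.95), and the peroxiredoxin *Prx4* had 413.8 and 330, against 108.6 and 134.9 (log2 fold change 1.61). *GstD1*, the delta-class transferase that responds to oxidative stress, had 2493 and 2564, against 1058 and 730.5 (log2 fold change 1.50, adjusted p = 0.0033), and is counted among the detoxification enzymes, of which 4 of 52 were called higher and 2 lower (7.69% and 3.85%, beside 3.23% and 3.6% of all genes). *GstO3* and *GstS1* are in both lists and are counted in each. *Cyp4p1* and *Cyp4p2* were the 2 lower ones, and rested on the wild-type library of ZT12, in which they had 122.9 and 114.1, beside 5.188 and 19.72 at ZT14. Of the redox list, 2 and 3 genes stayed called without the first and the second *Atx2* RNAi library.

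Genes of cuticle, eggshell and yolk, which neurons do not normally use, had 5 of 31 called higher (16.1%, beside 3.23% of all genes) and 0 lower, with a median log2 fold change of 2.02. Without the first *Atx2* RNAi library the median was 1.01 and 2 of the 5 stayed called. Beside *Cp7Fb*, the eggshell gene *Cp7Fa* of the same cluster had 83.64 and 110 normalized counts in *Atx2* RNAi, against 3.171 and 7.264 in wild type. The third of the cluster, *Cp7Fc*, had 88.05 and 68.28, against 7.926 and 0. *Yp2*, a yolk protein made by fat body and ovary, had 211.3 and 49.31, against 11.1 and 19.72 (log2 fold change 3.08, adjusted p = 0.027 from edgeR), and without the first *Atx2* RNAi library the log2 fold change was 1.66 (adjusted p = 0.38). The fat body lipoprotein *apolpp* had 468.1 and 508.3, against 85.6 and 160.8 (log2 fold change 1.99, adjusted p = 0.0029). Whether RNA of other tissues entered the sorted samples was not tested.

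Activity-regulated genes did not move as one, with 10% called higher and 20% lower, beside 3.23% and 3.6% of all genes. *Hr38*, a nuclear receptor and early response gene, had 234.8 and 266.8 normalized counts in *Atx2* RNAi, against 55.48 and 48.77 in wild type (log2 fold change 2.26, standard error 0.31, adjusted p = 0.0022 from edgeR). Wild type at dawn had 256 and 174.5, so the values of *Hr38* in *Atx2* RNAi at dusk did not both lie above wild type of all times. By contrast, *Arc1* and *Arc2* fell and the other 7 of the 10 genes tested were not called. Of the remaining nuclear receptors, *svp*, *Hr4* and *Eip78C* were called lower, with log2 fold changes of -4.48, -3.44 and -1.85. That was 15.8% of the list, beside 3.6% of all genes. *Hr4* had 353.7 and 351.5, against 2875 and 4767. All 3 lost the call without the first or the second *Atx2* RNAi library.

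The effect at dusk was set against that at dawn, for which the *Atx2* RNAi libraries of ZT0 were compared with the wild-type libraries labelled ZT24 and ZT2. Those 4 libraries are separate from the 4 of dusk. At dawn 631 genes (7.3%) were called. Of the 590 called at dusk, 246 were also called at dawn in the same direction and 5 in the opposite one, and 519 had the same sign of log2 fold change. A test of the difference between the effects called 64 genes (0.74%), 28 of which were called at dusk, and 970 genes (11.2%) had an unadjusted p under 0.05. *Nplp1* had a log2 fold change of 3.14 at dusk and -0.10 at dawn (difference 3.24, standard error 0.29, adjusted p = 0.00093 from edgeR). *Dh31* was lower at both times, by 2.21 at dusk and 7.06 at dawn on the log2 scale (difference 4.85, adjusted p = 0.001). *Nmdmc*, an enzyme of mitochondrial folate metabolism, had 4941 and 5144 normalized counts in *Atx2* RNAi at dusk, against 736.4 and 48.77 in wild type, and its log2 fold change was 3.67 at dusk and -4.23 at dawn. The kinase gene *meng* had 2980 and 3270, against 944 and 415.1, with 2.20 at dusk and -3.94 at dawn. *Nmdmc* and *meng* were picked with their values in view. The dusk call of *Nmdmc* was lost without either *Atx2* RNAi library of dusk. That of *meng* was lost without either of these or without the wild-type library of ZT14.

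**Figure D5:**
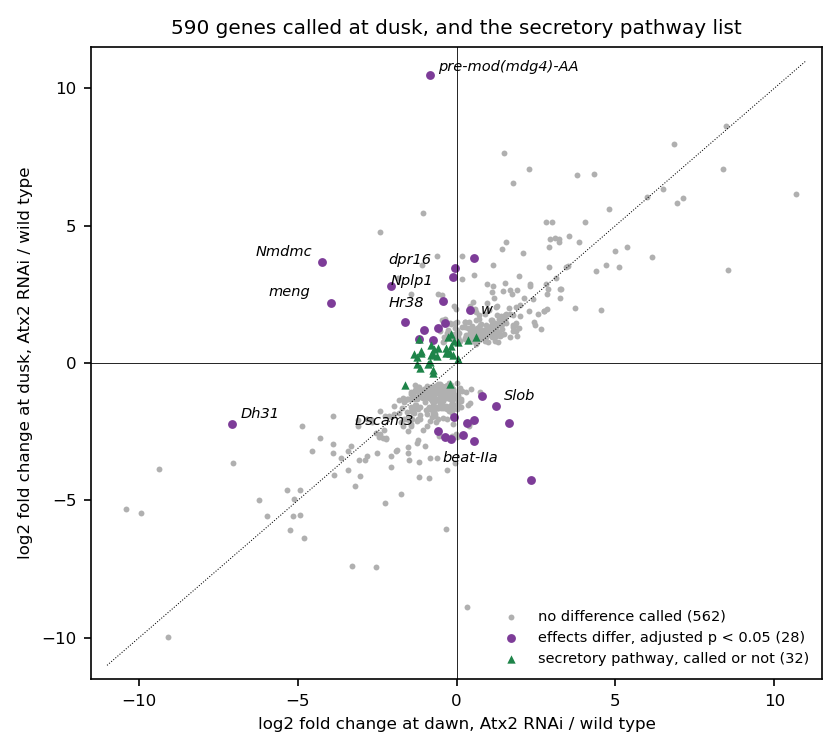
Log2 fold change of *Atx2* RNAi over wild type at dusk (y axis) against that at dawn (x axis) for the 590 genes called at dusk and for the 32 secretory pathway genes. Purple points are the 28 genes whose effects differed at an adjusted p under 0.05, grey points the other 562, green triangles the secretory genes, and the dotted line marks equal effects. Secretory genes lie mostly above 0 at dusk and below 0 at dawn.

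Early secretory pathway genes, which move proteins into and out of the endoplasmic reticulum, had the largest share of members with an unadjusted p under 0.05 for the difference between dusk and dawn, among the lists with at least 10 members tested. After adjustment 1 of 32 passed, fewer than in some other lists such as neuropeptides (2 of 21). At dusk 5 of 32 were called higher (15.6%, beside 3.23% of all genes) and 0 lower, with a median log2 fold change of 0.36. At dawn 0 of the 32 were called higher and 8 lower, with a median of -0.65. Over all 8643 genes, 313 were called lower at dawn. The 5 at dusk were the cargo receptors of the p24 family *eca*, *p24-1* and *CHOp24*, the COPI coat subunit *epsilonCOP* and the translocon component *TRAM*. *eca* had 1410 and 1526 normalized counts in *Atx2* RNAi, against 851.3 and 556.2 in wild type (log2 fold change 1.06, adjusted p = 0.024 from edgeR), and *TRAM* had 1171 and 1219, against 650 and 664.1 (log2 fold change 0.86, adjusted p = 0.035). Among the 8 lower at dawn were *Sec31* of the COPII coat and the COPI subunits *betaCOP*, *beta'COP* and *gammaCOP*, with log2 fold changes of -1.61, -1.26, -1.35 and -1.23 at dawn and -0.79, 0.22, 0.32 and -0.02 at dusk. Summed over the 32 genes, normalized counts at dusk were 27236 and 26356 in *Atx2* RNAi, against 23035 and 19654 in wild type. At dawn they were 17071 and 15507 in *Atx2* RNAi, against 21766 and 27136 in wild type. Both *Atx2* RNAi libraries were thus above both wild-type libraries at dusk and below both at dawn. The difference of the effects was positive for 31 of the 32 genes, with a median of 0.88, and had an unadjusted p under 0.05 for 22 (68.8%), beside 11.2% of all genes. Only *TRAM* passed after adjustment over all genes (difference 2.04, standard error 0.30, adjusted p = 0.016), and it did not pass without any 1 of the 4 *Atx2* RNAi libraries (adjusted p from 0.052 to 0.093) or with the replicate block (adjusted p = 0.051). *CrebA*, a factor known to activate secretory genes in fly glands, had a log2 fold change of 0.69 at dusk (adjusted p = 0.071) and -1.25 at dawn (adjusted p = 0.0054), and what part it had in these values was not tested. Without 1 of the 8 libraries at a time, between 13 and 21 of these 22 genes kept an unadjusted p under 0.05 for the difference, and the median ran from 0.74 to 1.06. The 5 calls at dusk were lost without the first or the second *Atx2* RNAi library or the wild-type library of ZT14, and 2 genes were called without that of ZT12.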

How the data were processed

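Sorted LNvs were profiled by RNA sequencing with T7 amplification and single-end reads of 50 bases. With kallisto and the FlyBase 6.14 transcript set, the authors deposited, for each of 30438 transcripts, an estimated count without normalization and a value in TPM (the version of kallisto is not given in the sources used here). The deposited TPM values were used to check marker levels and to weight the effective lengths of the transcripts of a gene. Through these lengths they entered the bins of length and the fit with a length offset, and no other test.

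Transcripts were matched to genes with the Ensembl release 115 annotation (assembly BDGP6.54), which also gave the positions printed. There was no match for 247, which held 0.234% of all estimated counts. The rest were added up by gene and rounded to whole numbers. The 8 libraries of *Atx2* RNAi and of wild type around dusk and dawn were fitted as 4 groups of 2 in edgeR 4.0.16 by quasi-likelihood F-tests (R 4.3.3, limma 3.58.1), with TMM normalization, filterByExpr and Benjamini-Hochberg adjustment over all genes tested. Genes with an adjusted p below 0.05 were called. The *tyf(e)* libraries and the other wild-type libraries entered 1 alternative and the ranges given for them. Folds against a group at or under 3 counts in every library are lower bounds, computed as the mean of the other group over the mean floor of that group. The floor covers counting error only. Without a stated strand, reads of overlapping genes cannot be told apart.

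The comparison, the genes and the 53 gene lists were chosen with earlier results of these data known, and the lists of neuron identity factors and of the mitochondrial genome after values were seen. Genes are named by a rule: the check genes, the 10 largest changes in each direction with at least 50 normalized counts in both libraries of the higher group, and up to 4 called members of each list by absolute log2 fold change, with *Atx2*, *CrebA* and core clock genes left out. Further called members given by name were taken from the same lists after their values were seen. The alternatives were DESeq2 1.42.0, its size factors in edgeR, library size scaling, no filter, a filter of 10 counts in each library, the 4 dusk libraries alone, all 14 libraries, a length offset, the replicate number as a block, and leaving out each library. Python 3.11.15 with numpy 2.4.6, pandas 2.3.3 and matplotlib 3.10.9 served for tables and plots.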

Additional observations from a re-analysis of the deposited data

Results flagged for a closer look

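For 11 of the 139 genes in the rule for naming, the log2 fold change of *Atx2* RNAi over wild type differed between dusk and dawn. This was a test of the difference itself (edgeR, adjusted p under 0.05, dusk minus dawn). The difference was 4.85 for *Dh31*, 3.52 for *dpr16*, 3.24 for *Nplp1* and 2.70 for *Hr38*. It was 2.04 for *TRAM*, 1.59 for *Pdk1* and 1.50 for *w*. It was -1.91 for *Dscam3*, -2.60 for *beat-IIa* and -2.82 for *Slob*. For *pre-mod(mdg4)-AA* the fit gave 11.30, a value that rests on wild-type libraries of dusk with no count, depends on the prior count and gives no size. Of the 11, 7 had log2 fold changes of opposite sign at dusk and dawn. *TRAM*, *Hr38*, *Slob* and *Pdk1* were among them, at 0.86, 2.26, -1.57 and 0.84 at dusk and -1.17, -0.44, 1.24 and -0.75 at dawn. The others were *Nplp1* and *dpr16*, with values near 0 at dawn (-0.10 and -0.06), and *pre-mod(mdg4)-AA* (-0.83 at dawn). Over all genes tested, 64 differed, and 52 of these had opposite signs. *Nmdmc*, *meng* and *CrebA*, which are outside the rule, were among the 52.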

How the results depend on the processing

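No gene called both in the fit of the report and under an alternative had opposite signs in the 2, and the median over all genes moved by no more than 0.05 on the log2 scale. DESeq2 gave 879 calls, 435 higher and 444 lower, and 229 for the difference between dusk and dawn. DESeq2 on the 4 dusk libraries gave 841 calls. Scaling by library size gave 321 calls (149 higher, 172 lower, 23 for the difference), all of them among the 590. Without the filter on low counts there were 1142 (519 higher, 623 lower, 397 for the difference), and with all 14 libraries 111 for the difference. Leaving out 1 library at a time, the dawn libraries having been added after seeing the data, gave 132 to 914 calls (63 to 456 higher, 69 to 461 lower, 9 to 190 for the difference); the lone library left in a group is then assumed to vary like the others. Without the wild-type library of ZT14, 34.4% of the calls were higher, beside 47.3%. Of the 139 genes in the naming rule, 40 kept the call under every one of the 18 alternatives that gave them a value and 99 lost it under at least 1. The replicate block left 418 calls (173 higher, 245 lower, 15 for the difference). Same-numbered *Atx2* RNAi libraries of ZT0 and ZT12 deviated together with a correlation over genes of 0.0262. With only 2 pairs this cannot show whether same-numbered libraries shared a culture or a sort, and the labels do not say. Depth limits genes near 3 counts: 18 called higher had at most that in both wild-type libraries, and 16 called lower in both *Atx2* RNAi libraries.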

Other observations

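Several gene groups not described above had between 0 and 2 calls each. Autophagy genes had 0 calls among 24 tested (median log2 fold change -0.08), cell cycle and replication genes 0 among 35 (median 0.24), and the 13 genes of the mitochondrial genome 0 as well (median 0.49). Serine proteases and their inhibitors had 0 calls among 11, and odorant-binding proteins 0 among 9. With 6.83% of all genes called, lists of these sizes would hold few calls, so 0 calls in them says little. Insulin and TOR signalling had 1 call among 33 (3.03%, beside 6.83% of all genes), *Pdk1*, which was lost without any 1 of the 4 dusk libraries. Of 22 genes of apoptosis and JNK signalling, 2 were called (9.09%, beside 6.83% of all genes), *hid* higher (log2 fold change 1.39) and *Diap2* lower (log2 fold change -1.28), and *hid* lost its call without any 1 of the 4 dusk libraries. Of 21 genes of innate immunity (median 0.11), the antimicrobial peptide gene *AttA* and the NF-kappaB factor *Dif* were called higher (9.52%, beside 3.23% of all genes). Their log2 fold changes were 2.20 and 1.61, and both calls were lost without any 1 of the 4 dusk libraries. Of the sensory receptors, *Ir76a* had 29.35 and 54.37 normalized counts in *Atx2* RNAi, against 229.1 and 180.6 in wild type. By chromosome arm, the share of tested genes called ran from 5.13% on chromosome 4 to 7.49% on 3L.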
